A study of Mus musculus with 6 samples.

Results

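Neurotrophic factors and their receptors were followed in sciatic nerves of mouse pups at postnatal day 2, in which the Schwann cells of the mutants lack the histone deacetylases HDAC1 and HDAC2. The set consists of 9 genes: the ligand genes Gdnf, Artn, Bdnf and Ntf3, the GDNF family receptor genes Gfra1, Gfra2 and Gfra3, the receptor kinase gene Ret, and Ntrk2, which encodes the BDNF receptor TrkB. A gene was included through the array probe sets annotated with its symbol alone, and its level is that of the probe set with the highest mean over the 6 arrays. This gave 23 probe sets of 45101 for 8 of the 9 genes. No probe set was named Ntf3 here, so Ntf3 was not analysed here. Of the 8 genes, 6 were among the 14550 genes tested, which are those that reached the low-value limit, a log2 value of 4, on 3 or more of the 6 arrays. Bdnf and Ret were not.

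GDNF and artemin are ligands of the GDNF family. GDNF binds chiefly GFRα1, neurturin GFRα2 and artemin GFRα3, each a receptor anchored to the outer membrane leaflet that presents the ligand to the kinase RET, and NCAM can serve as another signalling partner of GFRα1. BDNF and neurotrophin-3 belong to the neurotrophins, which signal through the TRK kinases and the shared receptor p75NTR, encoded by Ngfr. In peripheral nerve these ligands support motor and sensory neurons, and Schwann cells are known to raise Gdnf, Artn and Bdnf after nerve injury.

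Each of the 3 double knockout (dKO) samples was labelled DhhCre+ HDAC1-2 dKO and peripheral hypomyelination. Each of the 3 control samples was labelled DhhCre–, and whether controls carried modified Hdac1 or Hdac2 alleles was not given in the labels. All 6 were of mixed strain, and the perineurium, an outer sheath of the nerve, had been taken off. The Cre recombinase is driven by the desert hedgehog gene, which is active in Schwann cells, while RNA of all cell types in the nerve contributes to every value. At this age Schwann cells begin to myelinate, and the comparison asks what the loss of both enzymes does to gene expression then. Levels are on the log2 scale, with group means ± SD over n = 3 arrays, and changes are dKO minus control with a standard error (SE). The labels do not say how many nerves or pups went into a sample, so the p-values rest on the spread between these arrays, which may be technical.

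As a check of the labels, the targeted gene Hdac1 changed by -1.55 (SE 0.13, adjusted p = 0.000271) and Hdac2 by -1.26 (SE 0.15, adjusted p = 0.00103), in log2, and every dKO array was below every control array for both. Of 3 Hdac2 probe sets, 2 were called lower and 1 had a change of 0.13, and with all 3 averaged the change was -0.71 (adjusted p = 0.00431). Limma's test at the threshold of 0.05 called 22.0% of the 14550 genes, 12.6% upward and 9.38% downward in dKO. The median change over all of them was 0.006. Sox10, the factor that specifies Schwann cells, was at 10.68 ± 0.44 in control and 10.32 ± 0.37 in dKO nerves (log2 change -0.36, SE 0.26, adjusted p = 0.371). Arrays correlated at 0.981 to 0.988 within control, at 0.980 to 0.991 within dKO and at 0.925 to 0.963 between the groups.

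Gdnf, Gfra2 and Ntrk2 were higher in dKO nerves, and 0 of the 6 tested genes were lower by limma (0 also at an unadjusted p under 0.05). Artn, Gfra1 and Gfra3 did not pass the test. Bdnf lay at the low-value limit and Ret under it. The 3 higher genes of 6 stand beside the 12.6% of all tested genes called higher. Gdnf passed the limit only through its dKO arrays, so its place among the tested genes depended on its being high there, and without it 2 of 5 were called. A set of this size says nothing further about the genes as a group.

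**Figure D1:**
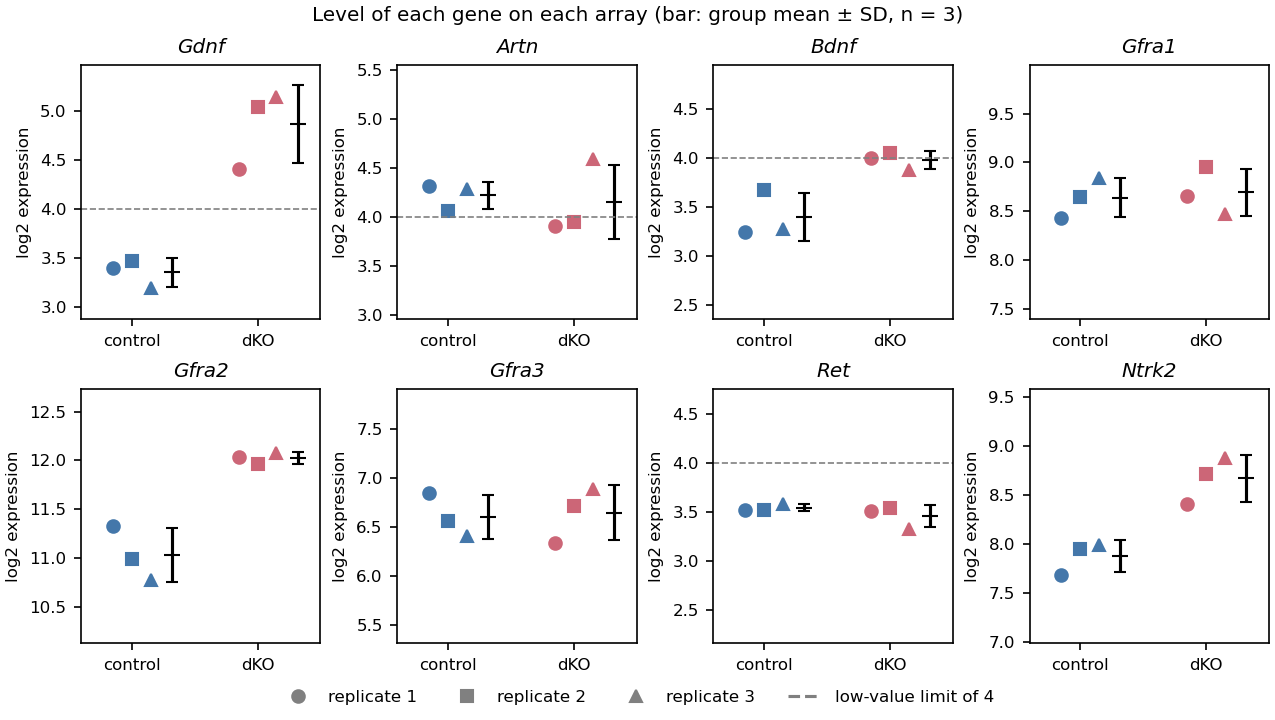
Level of the 8 genes with a probe set on each array, as log2 expression on the vertical axis of equal span in every panel, for control (blue) and dKO (red). Symbols mark the replicate number, the bar gives the group mean ± SD, and the dashed line is the low-value limit of 4. The groups are apart for Gfra2 and Ntrk2, and for Gdnf with all control values under the limit. They overlap for Artn, Gfra1 and Gfra3, while Ret and 4 of the 6 Bdnf values lie under the limit.

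Among the ligands, Gdnf encodes glial cell line-derived neurotrophic factor, a survival factor for motor neurons. Its only probe set read 3.40, 3.47 and 3.19 on control arrays 1, 2 and 3 and 4.42, 5.05 and 5.15 on dKO arrays 1, 2 and 3. All control values were under the low-value limit and all dKO values were over it, with the lowest dKO value in replicate 1. The fitted log2 change was 1.52 (SE 0.21, adjusted p = 0.00176). Because values under the limit have little meaning as levels, the fold is a lower bound: with control values set to 4, Gdnf was at least 1.83-fold higher in dKO. The dKO mean of 4.87 ± 0.40 was itself less than 1 log2 unit over that limit. The groups did not overlap for 40.9% of the tested genes, 22.6% with dKO above and 18.4% with dKO below, so such a separation is common here.

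The bases just before the Gdnf starts are shown because Gdnf is the ligand gene of the set that was called. The RefSeq table (GRCm38.p6) gives a pair of starts, and the probe set does not tell them apart. The first window is chr15:7809798-7810047 and the second, which lies inside the gene's listed span, is chr15:7813477-7813726, both on the plus strand and 250 bases long, 5′ to 3′. Capitals mark matches to any of 4 motifs searched on both strands: AP-1 (TGANTCA), the CRE half-site (TGACG), a SOX motif (ACAAAG) and the GC box (GGGCGG).
Gdnf start 1: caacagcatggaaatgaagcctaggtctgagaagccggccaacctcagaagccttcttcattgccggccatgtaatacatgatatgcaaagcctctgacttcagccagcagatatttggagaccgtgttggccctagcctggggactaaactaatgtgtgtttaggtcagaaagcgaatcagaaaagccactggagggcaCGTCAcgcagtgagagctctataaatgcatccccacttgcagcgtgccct
Gdnf start 2: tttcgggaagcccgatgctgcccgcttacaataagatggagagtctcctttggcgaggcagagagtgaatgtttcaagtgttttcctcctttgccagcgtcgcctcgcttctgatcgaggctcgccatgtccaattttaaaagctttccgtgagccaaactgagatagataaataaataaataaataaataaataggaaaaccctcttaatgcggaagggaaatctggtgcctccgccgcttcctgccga
The first window held 1 match, a CRE half-site on the minus strand that begins 50 bases before the start, and the second held 0. Of 32851 RefSeq windows of the same length, 17.8% held a CRE half-site, 6.75% an AP-1 motif, 16.5% the SOX motif and 32.7% a GC box. The windows had GC contents of 50.8% and 46.8%, beside a median of 52.4% over all windows. A match describes letters and does not show that a factor binds there.

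Artn encodes artemin, a ligand of sensory and sympathetic neurons. It was dim in both groups, at 4.31, 4.06 and 4.29 on the control arrays and 3.91, 3.95 and 4.59 on the dKO arrays. The groups overlapped, and dKO replicate 3 was the highest of the 6. The log2 change was -0.07 (SE 0.20, adjusted p = 0.844), with a 95% interval from -0.54 to 0.40. A change of either sign within that range is compatible with these values.

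Bdnf encodes brain-derived neurotrophic factor. Its brighter probe set read 3.25, 3.68 and 3.27 in control and 4.0, 4.05 and 3.88 in dKO nerves. Only dKO replicates 1 and 2 reached the limit, the other 4 values have no order, and with values under the limit set to 4 the groups differed by 1.01-fold. Bdnf was therefore not tested. With no filter on low values the change was 0.58 (SE 0.16, adjusted p = 0.0381 over 18194 genes), and that call failed when control 1, control 3, dKO 1 or dKO 2 was left out (adjusted p = 0.103 to 0.120). The other Bdnf probe set was under the limit on all 6 arrays, with overlapping groups.

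Of the GDNF family receptor genes of the set, Gfra2 was called and Gfra1 and Gfra3 were not. Gfra2, which encodes the neurturin receptor GFRα2, was bright in both groups. It stood at 11.33, 10.99 and 10.78 on the control arrays and at 12.04, 11.96 and 12.08 on the dKO arrays. The dKO values were close together and all above the highest control value. The group means were 11.03 ± 0.28 and 12.03 ± 0.06, a log2 change of 0.99 (SE 0.17, adjusted p = 0.00445, 95% interval 0.61 to 1.38) or 1.99-fold.

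All 5 Gfra2 probe sets were higher on every dKO array than on any control array. The probe set 1423007_a_at had the largest change, from 7.60, 7.95 and 7.66 in control to 9.29, 9.24 and 8.97 in dKO (log2 change 1.43, SE 0.17, adjusted p = 0.000949 over 27718 probe sets). The probe sets 1459847_x_at and 1433716_x_at changed by 1.39 and 1.32 (SE 0.16 and 0.17, adjusted p = 0.000932 and 0.00163). Their suffix marks probes that can also match other transcripts, so they are weaker evidence for Gfra2. The remaining one, 1425578_a_at, changed by 0.54 (SE 0.17) and missed the threshold (adjusted p = 0.0543). The probe set that gives Gfra2 its level thus had a smaller change than 3 of the other 4, and with all 5 averaged the change was 1.13.

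Gfra1, which encodes the GDNF receptor GFRα1, read 8.44, 8.64 and 8.84 in control and 8.66, 8.95 and 8.47 in dKO nerves. The groups overlapped, and the log2 change was 0.06 (SE 0.18, adjusted p = 0.853, 95% interval -0.35 to 0.46). Its probe set 1439015_at was higher on all dKO arrays (8.41 to 8.49, against 7.84 to 8.36 in control), but the change of 0.33 did not pass (SE 0.17, adjusted p = 0.222). The other Gfra1 probe set changed by 0.02.

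Gfra3, which encodes the artemin receptor GFRα3, read 6.85, 6.56 and 6.41 in control and 6.34, 6.71 and 6.89 in dKO nerves. The values overlapped over their whole range, with a log2 change of 0.04 (SE 0.19, adjusted p = 0.900, 95% interval -0.40 to 0.48). The signs of the Gfra1 and Gfra3 changes turned with arrays centred on their medians, to -0.021 and -0.035, so neither has a direction. Both intervals end below the Gfra2 change of 0.99.

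The difference between receptors was also taken within each array. Gfra2 exceeded Gfra1 by 2.39 ± 0.48 log2 units in control and by 3.33 ± 0.30 in dKO nerves, and exceeded Gfra3 by 4.43 ± 0.06 and 5.38 ± 0.28. These differences mix the response of different probes, so only their change between groups is of use. It was 0.94 (SE 0.33) for Gfra1 and 0.95 (SE 0.16) for Gfra3, with no overlap between the groups in either case. Each gave p = 0.1 in the exact two-sided permutation test, the smallest p that 3 against 3 arrays allow, and p = 0.15 after adjustment over the 3 pairs compared. The pairs were chosen after the single genes had been seen. The third pair, Ntrk2 against the NT-3 receptor gene Ntrk3, changed by 0.76 (SE 0.58) with overlapping groups and p = 0.4 in the exact test.

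For comparison with Gdnf, the window before the only Gfra1 start in the same table is chr19:58455399-58455648 on the minus strand. RefSeq's listed span of the gene ends at 58455946, so the whole window lies inside that span.
Gfra1: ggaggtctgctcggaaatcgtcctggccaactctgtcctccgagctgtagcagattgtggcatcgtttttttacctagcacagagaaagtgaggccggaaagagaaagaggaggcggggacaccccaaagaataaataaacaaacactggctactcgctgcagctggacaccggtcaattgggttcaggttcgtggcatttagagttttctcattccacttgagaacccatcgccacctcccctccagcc
It held 0 matches to the 4 motifs and had a GC content of 52.4%, the median of all windows.

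Ret, which encodes the kinase that all GDNF family receptors share, was under the low-value limit on all 6 arrays with both of its probe sets. The brighter one read 3.52, 3.52 and 3.58 in control and 3.51, 3.54 and 3.33 in dKO nerves, and the other ranged from 2.17 to 2.58. Values this low have no order, so no level or change is given for Ret. Ncam1, which encodes NCAM, was at 10.66 ± 0.13 in control and 11.47 ± 0.46 in dKO nerves. It rose by 0.81 (SE 0.23, adjusted p = 0.0379) with 3 of 7 probe sets called, and this call was lost without any one array other than dKO 3 (adjusted p up to 0.121) and when arrays were centred on the median of their tested gene levels (0.0717).

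Ntrk2 encodes TrkB, the receptor for BDNF and neurotrophin-4, which is made in a full-length kinase form and in truncated forms common in glia. It read 7.69, 7.95 and 7.99 in control and 8.41, 8.72 and 8.88 in dKO nerves. All dKO values were above all control values, and replicate 1 was the lowest array of each group. The means of 7.88 ± 0.16 and 8.67 ± 0.24 give a log2 change of 0.79 (SE 0.17, adjusted p = 0.0126, 95% interval 0.40 to 1.19) or 1.73-fold.

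Ntrk2 had 8 probe sets, of which 3 passed the limit, and all 3 were called higher. The probe set 1435196_at went from 6.86, 7.70 and 7.35 to 8.38, 8.39 and 8.48 (log2 change 1.11, SE 0.21, adjusted p = 0.00876). The probe set 1420837_at went from 4.94, 5.36 and 5.20 to 5.89, 6.42 and 5.57 (log2 change 0.80, SE 0.23, adjusted p = 0.0447). Of the other 5, 4 were under the limit on all 6 arrays and 1 on 5 of them. Averaging all 8 with these dim ones gave a change of 0.32 that missed the threshold (adjusted p = 0.0756), while averaging the 3 that passed the limit gave 0.90 (adjusted p = 0.00508). Which TrkB form each probe set reads was not analysed here.

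The window before the Ntrk2 start of the promoter table, chr13:58806319-58806568 on the plus strand, is shown beside the Gdnf windows because both genes rose. RefSeq's listed span of the gene begins at 58806472, so the last 97 bases of the window lie inside that span.
Ntrk2: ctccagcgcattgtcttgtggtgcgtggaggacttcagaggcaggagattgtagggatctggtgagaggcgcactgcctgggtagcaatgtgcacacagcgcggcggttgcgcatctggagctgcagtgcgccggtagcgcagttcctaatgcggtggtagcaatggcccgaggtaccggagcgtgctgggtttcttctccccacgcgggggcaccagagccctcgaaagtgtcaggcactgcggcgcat
It held 0 matches to the 4 motifs, so it shared none of them with the first Gdnf window. Its GC content of 62.8% was above the median of 52.4%, and 20.8% of all windows were higher.

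**Figure D2:**
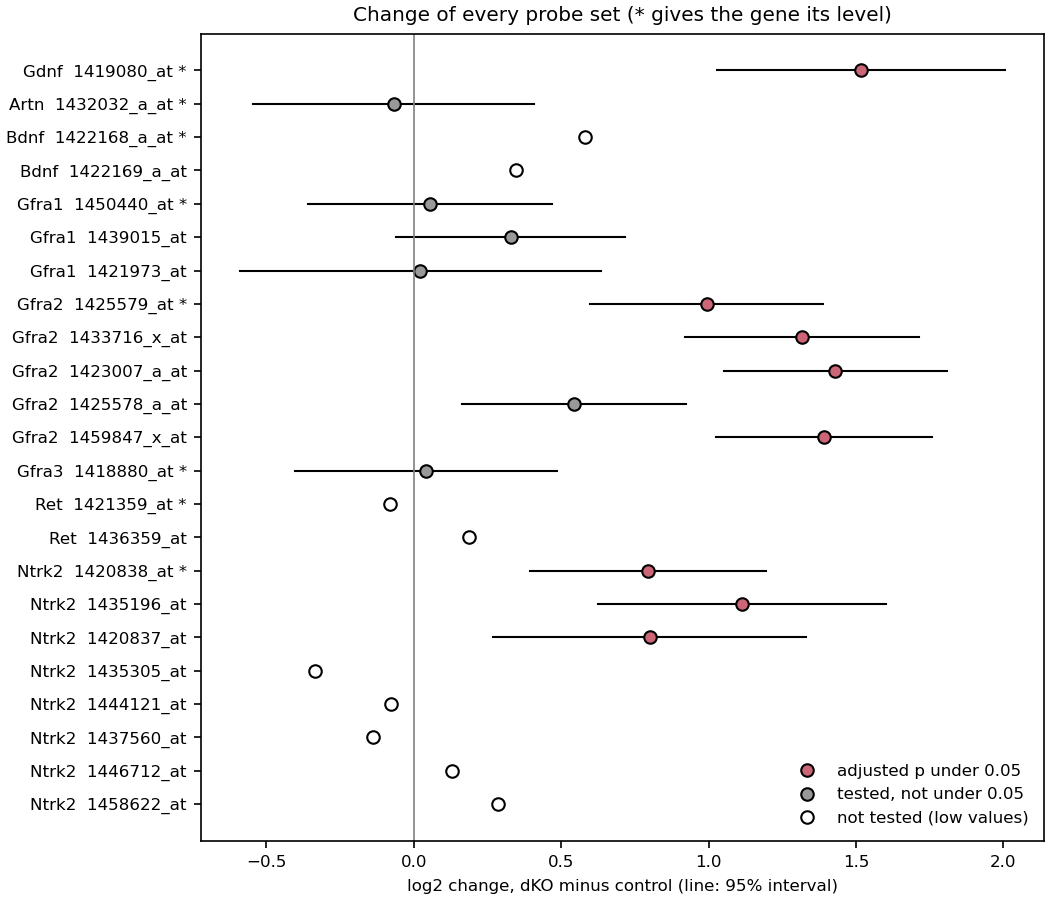
Log2 change (dKO minus control, horizontal axis) of all 23 probe sets, 1 per row. Lines are 95% intervals of tested probe sets, red marks an adjusted p under 0.05, and open circles were not tested because of low values. The tested Ntrk2 probe sets and 4 of the 5 Gfra2 probe sets are red and lie to the right of 0, while the intervals of Artn, Gfra1 and Gfra3 include 0.

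The tested genes whose pattern over the 6 arrays was most like Gfra2 were Meis3, a homeobox gene, Hectd2, an E3 ubiquitin ligase gene, and Pmepa1, an inhibitor of TGF-beta signalling. After each gene's mean was subtracted, they differed from Gfra2 by a root mean square of 0.05, 0.07 and 0.07 log2 units. Their own log2 changes were 1.03, 0.99 and 1.07, and nearness to the Gfra2 change follows from how they were picked. With its 3 probe sets averaged, the change of Pmepa1 was 0.63. Gfra2 was used because it had the largest rise among called genes of the set that were over the limit on all 6 arrays.

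Other ligands and receptors of these families were described from lists. Counts in these lists and in the cell type marker lists stand beside 12.6% of all tested genes called higher and 9.38% called lower. Where such a list has 0 genes lower by limma's adjusted p, it has 0 lower at an unadjusted p under 0.05 too. The exceptions are the ERK list with 1, Dusp4, and the mast cell list with 1, Kit. Of 5 tested genes of the GDNF family list beyond the set, 2 were higher, 0 lower and 3 not called, with a median change of 0.44. These were Ncam1 and Sdc3, which encodes syndecan-3, a heparan sulfate proteoglycan that binds GDNF. Sdc3 rose by 0.78 (SE 0.17, adjusted p = 0.0145) on 1 of its 3 probe sets, and its change was 0.28 with all probe sets averaged (adjusted p = 0.381). Its call was also lost without dKO 1 (adjusted p = 0.0544). The ligand gene Nrtn, which encodes neurturin, read 5.0, 5.16 and 5.42 in control and 5.43, 5.68 and 5.79 in dKO nerves, with a change of 0.44 that did not pass (SE 0.17, adjusted p = 0.101). The persephin gene Pspn had a change of -0.03 (adjusted p = 0.912) and its receptor gene Gfra4 of -0.18 (adjusted p = 0.441).

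Of 6 tested neurotrophin genes and receptors beyond the set, 2 were higher, 1 lower and 3 not called, with a median of 0.05. Ngfr, which encodes p75NTR, read 9.64, 9.40 and 9.63 in control and 10.54, 10.82 and 10.32 in dKO nerves. It rose by 1.0 in log2 (SE 0.17, adjusted p = 0.00419), and all 3 of its probe sets were called. The groups did not overlap, and the call held without any one array. The sortilin family receptor gene Sorcs2 rose by 0.81 (SE 0.17, adjusted p = 0.0115). Sorcs1, of the same family, fell by 0.83 (SE 0.24, adjusted p = 0.0403), a call lost without any one control array or dKO 2 (adjusted p up to 0.111). Ntrk3, which encodes the NT-3 receptor TrkC, had a change of 0.04 on its brightest probe set (SE 0.32, adjusted p = 0.947). That was the smallest of its 8 probe sets, whose changes ran up to 0.85. Of the 8, 1 was called higher (log2 change 0.69, SE 0.14, adjusted p = 0.0109). With all 8 averaged, the Ntrk3 change was 0.44 and did not pass (adjusted p = 0.109). Sort1, which encodes sortilin, had a change of 0.06 (adjusted p = 0.812), and the neurotrophin-4 gene Ntf5 was under the limit on all 6 arrays.

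Among 7 tested genes that cleave proneurotrophins or inhibit such enzymes, 1 was higher, 0 lower and 6 not called (median 0.27), beside 12.6% of all tested genes called higher. Furin, a protease gene of the secretory pathway, rose by 1.17 (SE 0.34, adjusted p = 0.0435), a call lost without any one control array or dKO 1 (adjusted p up to 0.120) and with no filter on low values (0.0506). Without dKO 3 its change was smallest, at 0.76.

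Of 21 tested adaptors and effectors of RET and TRK kinases, 3 were higher, 0 lower and 18 not called, with a median of 0.16. That count is near the 12.6% of all tested genes called higher. Plcg1, which encodes phospholipase C gamma 1, was at 9.98 ± 0.05 in control and 11.34 ± 0.08 in dKO nerves. It rose by 1.36 (SE 0.13, adjusted p = 0.000386), and 2 of its 3 probe sets were called. The third had a change of -0.032, and with all 3 averaged the rise was 0.80 (adjusted p = 0.00198). The adaptor gene Shc2 rose by 1.06 (SE 0.19, adjusted p = 0.00617), and Kidins220, which encodes a TRK-binding scaffold, rose by 0.67 (SE 0.13, adjusted p = 0.00829). For both, only 1 probe set was called, of 2 tested for Shc2 and 4 for Kidins220, and their averaged changes of 0.25 and 0.31 did not pass (adjusted p = 0.170 and 0.190). Grb2 and Ptpn11, which encode a shared adaptor and the phosphatase SHP2, had changes of -0.08 and -0.10 (adjusted p = 0.790 and 0.684). At an unadjusted p under 0.05, 9 of the 21 were higher and 0 lower, beside 2842 higher and 2145 lower of all 14550. The uncalled Gab2, Nck2, Shc1, Dok4 and Grb10 were at 0.46, 0.45, 0.42, 0.42 and 0.41, with all dKO arrays above all control arrays. Gab1 and Dok5 were at -0.27 and -0.35, with all dKO arrays below all control arrays.

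Of 10 tested genes of a list of ERK feedback inhibitors and ETS targets, which ERK signalling is known to raise, 3 were higher, 0 lower and 7 not called (median 0.30), beside 12.6% of all tested genes called higher. A replicate block ended all 3 calls (adjusted p = 0.0535 to 0.0685). The ETS factor gene Etv5 rose by 0.73 (SE 0.17, adjusted p = 0.0180), and the feedback inhibitor genes Spry2 and Spred2 rose by 0.64 and 0.60 (SE 0.17 and 0.16, adjusted p = 0.0278 and 0.0299). Each was called with 1 probe set, and each call was lost with all probe sets averaged (adjusted p up to 0.108) and with single arrays left out. With only probe sets over the limit averaged, Etv5 and Spry2 again missed the threshold (0.113 and 0.0549) and Spred2 passed (0.0469). As for single arrays, the Etv5 call as first given was lost without replicate 2 of either group or dKO 1 (up to 0.0691). The Spry2 call was lost without any one array other than control 2 (up to 0.0937). The Spred2 call was lost without replicate 1 of either group, control 3 or dKO 2 (up to 0.101). Dusp6, a further ERK feedback gene, had a change of 0.08 (adjusted p = 0.692), and Dusp4 of -0.76 (SE 0.25, adjusted p = 0.0628).

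Of 10 tested gp130 cytokine and receptor genes, another trophic family of nerve, 3 were higher, 0 lower and 7 not called (median 0.34). Cntfr, the receptor gene for ciliary neurotrophic factor, rose by 1.23 (SE 0.23, adjusted p = 0.00708) on both of its probe sets. Its ligand gene Clcf1 and the LIF receptor gene Lifr rose by 0.69 and 0.56 (SE 0.17 and 0.14, adjusted p = 0.0225 and 0.0245). Of 3 probe sets each, 2 were called for Clcf1, whose lowest change was -0.26, and 1 for Lifr. With all probe sets averaged, Clcf1 passed at 0.53 (adjusted p = 0.0164) and Lifr missed the threshold at 0.43 (adjusted p = 0.0549). The Clcf1 call failed when replicate 1 of either group, control 3 or dKO 2 was left out (adjusted p up to 0.0753), and the Lifr call without any one array other than dKO 3 (up to 0.0867).

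Of 17 other trophic factor genes tested, 4 were higher, 2 lower and 11 not called (median 0.15). Mdk, which encodes the heparin-binding factor midkine, rose by 1.65 (SE 0.16, adjusted p = 0.000386), from 10.31 ± 0.18 in control to 11.96 ± 0.16. Fgf1, an acidic fibroblast growth factor, had the largest change of this list: from 8.67 ± 0.16 in control it fell by 2.03 (SE 0.14, adjusted p = 0.000142) to 6.63 ± 0.04, and all 3 probe sets were called. Fgf7 fell by 0.85 (SE 0.15, adjusted p = 0.00529). The vascular factor genes Vegfb and Vegfa rose by 0.73 and 0.63 (SE 0.15 and 0.14, adjusted p = 0.0100 and 0.0152), the Vegfa call being lost without control 3 (0.0562). The last higher gene, Erp29, encodes a protein of the endoplasmic reticulum rather than a secreted factor, and its call was lost without any one array (up to 0.149).

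Of 9 tested genes of repair Schwann cells, 4 were higher, 1 lower and 4 not called (median 0.40). The growth-associated gene Gap43 rose by 3.05 (SE 0.20, adjusted p = 0.000106). Egr1 rose by 1.35 (SE 0.20, adjusted p = 0.00236), Uchl1, a ubiquitin hydrolase gene, by 0.87 (SE 0.19, adjusted p = 0.0133) and Sox2 by 0.72 (SE 0.18, adjusted p = 0.0243). The Uchl1 call was lost without dKO 2 (adjusted p = 0.0503) and the Sox2 call without control 1, dKO 1 or dKO 2 (up to 0.0835). The adhesion gene Nrcam fell by 1.76 (SE 0.18, adjusted p = 0.000555). Jun, known to drive Gdnf and Artn in injured nerve, had a change of 0.27 (SE 0.16, adjusted p = 0.277), and Shh of -0.12 (adjusted p = 0.636).

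**Figure D3:**
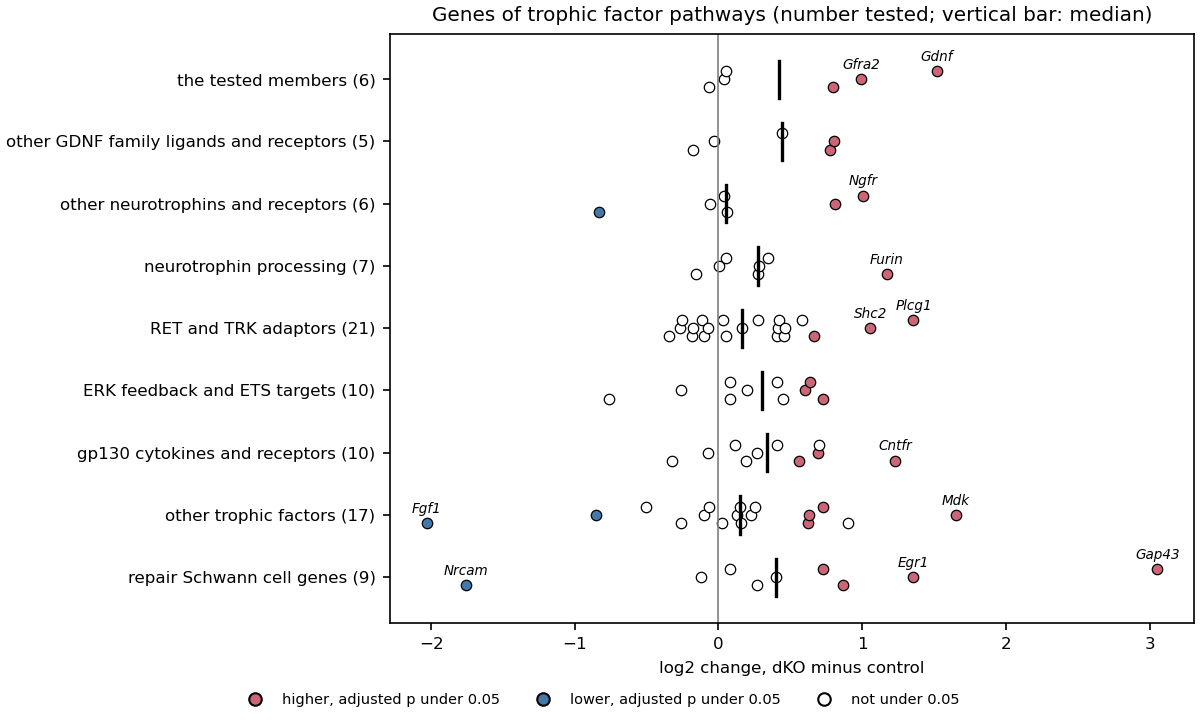
Log2 change (dKO minus control, horizontal axis) of every tested gene of the set and of the 8 lists beside it, with the number tested in brackets and a vertical bar at the median. Red and blue circles passed at an adjusted p under 0.05 as higher and lower, and called genes with a change over 0.95 are named. The set has 3 of 6 circles filled, with Gdnf among them although it passed the low-value limit only through its dKO arrays. The repair list has 5 of 9, the adaptor list 3 of 21 and the processing list 1 of 7, beside 22.0% of all tested genes called. Members and lists were chosen with earlier results of these data known, and differences between lists were not tested.

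Levels in a whole nerve sample mix cell types, and fewer cells of a type and less RNA per cell cannot be told apart. Of 5 tested Schwann cell markers, S100b and Erbb3 were lower by 1.33 each, in log2 (SE 0.26 and 0.25), and the other 3 were not called. Foxd3 was at 0.46 and Sox10 at -0.36, with overlapping groups (adjusted p = 0.283 and 0.371). Cdh19 was at -0.55 with all dKO arrays below all control arrays (adjusted p = 0.0569). The list's mean level ran from 9.83 to 10.22 in control and 9.16 to 9.62 in dKO nerves. Of 6 fibroblast markers, 3 were higher and 0 lower, and the mean level was 11.09 to 11.41 in control and 11.61 to 11.71 in dKO. Pdgfra, Dcn and Lum rose by 0.78, 0.86 and 0.76 (adjusted p = 0.00717, 0.0162 and 0.0266), beside 0.79 for Ntrk2. The Dcn call was lost without replicate 2 of either group (up to 0.0621) and the Lum call without control 1, control 2, dKO 2 or dKO 3 (up to 0.0876). The collagen genes Col1a1 and Col3a1 were not called, with changes of 0.12 and 0.11. Col14a1, also not called, went the other way, at -0.16 with overlapping groups (adjusted p = 0.595). Of 5 pericyte markers, 3 were higher and 0 lower, with a mean level of 8.79 to 8.87 in control and 9.24 to 9.54 in dKO. Kcnj8 and Abcc9, which encode a potassium channel of pericytes and its regulatory subunit, rose by 1.32 and 0.69 (adjusted p = 0.00201 and 0.00703). The call of Rgs5 (0.64, adjusted p = 0.0465) was lost without any one array (up to 0.117). The other pericyte markers, Cspg4 and Pdgfrb, were not called, at -0.36 with all dKO arrays below all control arrays (adjusted p = 0.186) and 0.22 with overlapping groups (0.546). The part of these cell types in the changes of Gdnf, Gfra2 and Ntrk2 was not tested.

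Neurons can express Ret and Ntrk2, and their cell bodies lie outside the nerve. Of 7 tested neuron markers, 1 was higher and 0 lower, with a mean level of 6.40 to 6.54 in control and 6.79 to 6.91 in dKO nerves. The one called was Snap25, a synaptic vesicle fusion gene (log2 change 1.45, adjusted p = 0.00148), while the motor neuron genes Isl1 and Chat did not pass the limit. The uncalled neuron markers went both ways. Nefl, Prph and Stmn2 were at 0.54, 0.54 and 0.46, and Nefm and Tubb3 at -0.02 and -0.05, all with overlapping groups. Scn9a was at -0.38 with all dKO arrays below all control arrays. Of 6 macrophage markers, only Aif1 was called (1.06, adjusted p = 0.0271), a call lost without control 2, control 3 or dKO 2 (up to 0.0853). At an unadjusted p under 0.05, 3 were higher and 0 lower, and the median change was 0.75. Ptprc and Adgre1 were at 1.35 and 0.75 with all dKO arrays above all control arrays. Csf1r, Cd68 and Mrc1 were at 0.76, 0.22 and -0.11 with overlapping groups. The mean level of the macrophage list was 6.85 to 7.23 in control and 7.38 to 8.21 in dKO. Endothelial markers had 0 of 6 called by limma, 3 of them higher at an unadjusted p under 0.05, and mean levels of 7.08 to 7.61 and 7.66 to 8.16. Mast cell markers had 0 of 4 called (1 lower unadjusted) and red blood cell markers 0 of 2 (0 unadjusted). Of 6 perineurial markers, Cldn1 was higher and Itgb4 lower (1.70 and -0.62), of 2 adipocyte markers Fabp4 was higher (2.30) and of 5 skeletal muscle markers Mylpf was higher (0.62). The other adipocyte marker, Cidec, was at -0.28 and not called. The other muscle markers were not called either. Tnnt3 was at 0.49, and Myh3, Acta1 and Ckm were at -0.09, -0.25 and -0.29, Acta1 with all dKO values under the limit. The calls of Cldn1, Itgb4 and Mylpf were lost with 3, 5 and 5 of the 6 arrays left out singly (adjusted p up to 0.0589, 0.119 and 0.107). With all probe sets averaged, the changes of Cldn1 and Fabp4 were 0.83 and 1.5. Of 4 melanocyte markers, 3 were lower: Mitf, Tyrp1 and Pmel, by -1.63, -1.83 and -1.22, the Pmel call being lost without control 2, control 3, dKO 2 or dKO 3 (up to 0.0958). The other tested one, Dct, was at 0.13 with overlapping groups and was not called (adjusted p = 0.775). Whether any of these moved with the trophic factor genes for a shared reason was not tested.

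The changes of the set were recomputed with 1 array left out and with other processing. Gfra2 stayed between 0.87 and 1.14 and Ntrk2 between 0.69 and 0.92 with each array left out in turn, and both were called every time (adjusted p up to 0.0212 and 0.0481). Gdnf could not be tested under the filter without a dKO array, since only 2 arrays over the limit remained. Artn, Gfra1 and Gfra3 had changes of -0.29 to 0.051, -0.073 to 0.17 and -0.079 to 0.20 with each array left out, and 0 of these were called.

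**Figure D4:**
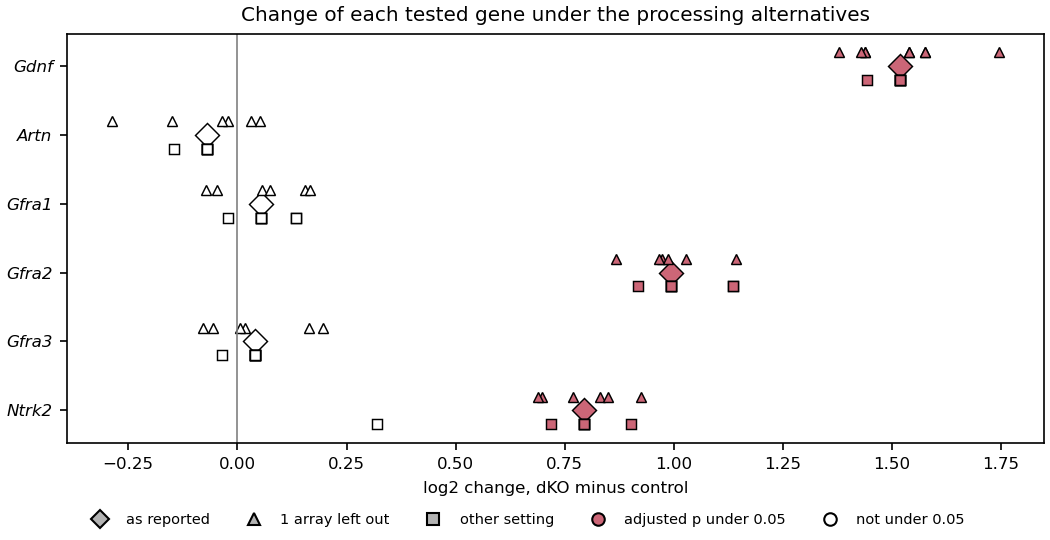
Log2 change (dKO minus control, horizontal axis) of the 6 tested genes of the set as reported (diamonds), with 1 array left out (triangles, for Gdnf with and without the filter on low values, in both cases against control values under the limit) and under other settings (squares). Red marks an adjusted p under 0.05. Gdnf and Gfra2 are red throughout, Ntrk2 is open only at 0.32, where its 8 probe sets were averaged, and Artn, Gfra1 and Gfra3 are open throughout.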

How the data were processed

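RNA from sciatic nerves was hybridised to 1 Affymetrix Mouse Genome 430 2.0 array per sample, 3 dKO and 3 control, grouped by the sample titles. The authors deposited 1 log2 value per probe set and array, between 1.66 and 14.94; GCOS 1.2 and GCRMA are named, without settings, per the submitters' processing notes. That the scale is log2 was inferred from the range. Every array had the same median (5.77) and, rank by rank, values within 0.01 of the others, which would hide a shift common to all genes. The number of arrays limits the precision (median SE 0.17).

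Of 45101 probe sets, the platform annotation gave 34958 a single symbol, 932 several, leaving 9211 not named here. Current symbols came from RefSeq (GRCm38.p6) by gene ID, with 204 IDs unmatched. The filter (log2 of 4 or more on 3 or more arrays) left 14550 of 18194 genes. They were fitted with limma 3.58.1 (lmFit, eBayes) in R 4.3.3, without covariates, and adjusted p-values are two-sided, by Benjamini-Hochberg over all genes (single probe sets over 27718 probe sets). The fit was checked on simulated data. Promoter windows cover 250 bases before each start, found for 6 of the 9 genes.

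Members and lists were chosen with earlier results of these data known, and the lists came from general knowledge. The text names all members, their ligand and receptor partners, up to 4 called genes of each pathway list by size of change, and the 3 genes most like Gfra2, the member with the largest rise among called members over the limit on all 6 arrays. Sox2, Vegfa, Erp29, the genes named as not called in a list, and marker genes were named after their values were seen. Alternatives were other limits, averaged probe sets, centring, an intensity trend, a replicate block and each array left out. Averaging only probe sets over the limit, and leaving out arrays without a filter, were added after the data were seen.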

Additional observations from a re-analysis of the deposited data

How the results depend on the processing

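Across the alternatives, Gfra2 and Ntrk2 were called in every setting but one for Ntrk2 (all probe sets averaged), and Gdnf wherever it could be tested, always against control values under the limit. Under the alternatives that keep all arrays, 2 to 4 genes of the set were called: 4 with no filter, which adds Bdnf, and 2 with a limit of 6, which removes Gdnf and Artn, or with all probe sets averaged. With an array left out the number was 2 to 3. The total of called genes, 3198, was 2131 to 2872 with an array left out, lowest without dKO 2, and 2557 with the replicate number of the titles as a block. The replicate block kept Gdnf, Gfra2 and Ntrk2. It ended the calls of Furin, Etv5, Spry2, Spred2, Lifr, Sox2, Vegfa, Pmel, Itgb4 and Mylpf. Same-numbered arrays did not deviate together (r = 0.039, -0.122 and -0.235), and differently numbered ones ranged from -0.16 to 0.215. With 3 arrays per group, deviations from a group mean are tied to each other, so these values cannot settle whether the numbers pair the samples. Centring each array on the median of its tested gene levels shifted all changes by -0.08 and the share of higher genes among those called from 57.3% to 49.4%. It turned the sign of uncalled changes for Gfra1 (-0.021), Gfra3 (-0.035), Ntrk3 (-0.038) and Sort1 (-0.015), and ended the calls of Ncam1, Spred2, Lifr, Erp29, Rgs5 and Mylpf (adjusted p = 0.0525 to 0.0717). With 1 array left out, uncalled changes crossed 0 for Artn (-0.29 to 0.051), Gfra1 (-0.073 to 0.17), Gfra3 (-0.079 to 0.20), Pspn (-0.10 to 0.089), Ntrk3 (-0.17 to 0.34) and Sort1 (-0.032 to 0.14). The causes of these moves were not tested. Signals near the low-value limit restrict what can be said of Gdnf, Artn, Bdnf and Ret.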
